A study of Homo sapiens with 6 samples.

Results

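Hepatocyte growth factor (HGF), its receptor MET, the proteases HGFAC and ST14 that can activate it, the protease inhibitors SPINT1 and SPINT2, and the related ligand MST1 with its receptor MST1R were described in LX-2 cells given BMP9. Members were all probe sets that the platform's annotation assigns to exactly 1 of these 8 genes, which gave 26 of the 44988 single-gene probe sets and 8 of 18132 genes. LX-2 cells are human hepatic stellate cells made immortal in culture, so both groups come from 1 line. All cells spent 12 h without serum. Control cells then received 0 ng/ml and treated cells 50 ng/ml recombinant human BMP9 for 24 h, with 3 samples in each group and 1 Affymetrix array per sample.

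HGF is secreted as an inactive chain by mesenchymal cells, in liver chiefly by stellate cells, and is a mitogen for hepatocytes, which carry MET. Serum and cell-surface proteases cut the chain to make it active, and Kunitz-type inhibitors on epithelial cells restrain those proteases. Macrophage-stimulating protein, the product of MST1, is built and activated much like HGF and signals through MST1R, also called RON.

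Values are deposited log2 expression values. The arrays were alike in scale, with medians between 3.55 and 3.57, and Pearson's r across genes was at least 0.991 between any 2 arrays. SMAD6, which encodes an inhibitory SMAD and is a known BMP target, was 8.07-fold higher with BMP9 (limma adjusted p = 3.97e-07), and ID3 was 3.09-fold higher. Stellate markers ranged widely in control. VIM (11.62), COL1A1 (9.73) and SPARC (8.34) were brightest, and COL3A1 (7.73), COL1A2 (7.54), TIMP1 (6.64), DES (6.41) and PDGFRB (5.76) followed. DCN (4.64), THY1 (4.19), LRAT (4.13), ACTA2 (3.90) and LUM (1.86) were dim. COL3A1 alone of 13 measured stellate markers was called, a difference of -1.29, where 0.684% of all genes were called. VIM (-0.37) and DCN (-0.74) were also lower with BMP9 without overlap, and were not called. Groups thus did not overlap in 3 of the 13 stellate markers, against 18.8% of all genes. Of the measured markers of other cells, 9 of hepatocytes, 9 of bile duct and other epithelium, 8 of endothelium and 8 of leukocytes, 0 were called. The share called of all genes, 0.684%, is so low that few calls would be looked for among so few markers. Summed log2 levels in control and with BMP9 were 38.46 to 39.02 and 38.35 to 38.77 for hepatocytes, 35.65 to 36.64 and 36.47 to 37.22 for epithelium, 37.22 to 37.82 and 37.36 to 37.69 for endothelium, and 33.37 to 33.76 and 33.28 to 34.28 for leukocytes. Among them ALB (4.36 and 4.14), EPCAM (1.92 and 2.26) and PTPRC (2.19 and 2.37) were dim, whereas CLDN4 (7.08 and 7.25) and CD68 (6.99 and 6.84) were brighter. Groups did not overlap for ALB, lower with BMP9, or for SERPINA1 (4.63 and 4.90), EPCAM and CLDN4, higher with BMP9. That is 2 of 9 hepatocyte markers, 2 of 9 epithelial ones and 0 of the endothelial and leukocyte ones, against 18.8% of all genes. The part of such cells in the results was not tested.

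The sequence before the start site is shown for both ligands and for MET. The ligands were taken because, by the probe sets that represent them, they had the largest positive differences of the 8 genes. MET is the receptor of HGF. Each line gives the 250 bases upstream of the gene's start, 5′ to 3′ on the gene's strand, from RefSeq on GRCh38.p14. HGF is chr7:81770048-81770297 on the minus strand, MET is chr7:116671946-116672195 on the plus strand, and MST1 is chr3:49689475-49689724 on the minus strand. Capitals mark CAGAC on either strand (GTCTG on the other), a short core that SMAD proteins can bind. The search for GGCGCC, a GC-rich element of BMP-activated SMADs that is its own reverse complement, found no letters to mark in these 3 windows. Nor did that for ACGTG on either strand (CACGT on the other), a form of the core of hypoxia response elements. The other form, GCGTG, was not searched for, so no lack of that core can be read from these windows.
HGF: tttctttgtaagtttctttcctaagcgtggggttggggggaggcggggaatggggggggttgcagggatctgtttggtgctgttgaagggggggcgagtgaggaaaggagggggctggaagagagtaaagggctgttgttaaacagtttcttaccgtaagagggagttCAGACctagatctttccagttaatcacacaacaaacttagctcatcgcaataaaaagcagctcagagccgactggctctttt
MET: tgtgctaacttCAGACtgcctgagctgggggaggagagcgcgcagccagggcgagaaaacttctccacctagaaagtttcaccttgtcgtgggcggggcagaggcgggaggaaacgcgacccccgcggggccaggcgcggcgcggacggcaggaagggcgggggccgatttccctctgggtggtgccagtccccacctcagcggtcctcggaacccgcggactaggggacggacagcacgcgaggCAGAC
MST1: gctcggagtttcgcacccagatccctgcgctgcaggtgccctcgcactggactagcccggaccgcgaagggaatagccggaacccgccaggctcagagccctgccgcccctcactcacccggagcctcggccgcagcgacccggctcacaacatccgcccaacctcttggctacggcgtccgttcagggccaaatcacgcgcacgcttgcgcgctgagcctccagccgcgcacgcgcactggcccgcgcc

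HGF held 1 CAGAC match, 82 bases before the start, and was 50.0% G or C, against 68.4% in MET and a median of 58.0% over all upstream windows. MET held 2 matches, of which 1 ended at the last base before the start, and MST1 held 0. Of 34943 upstream windows of this length, 38.0% held CAGAC, 16.4% GGCGCC and 18.5% ACGTG, so these matches are common. Windows were found for 6 of the 8 genes. Among the other members, MST1R held 2 GGCGCC matches and 1 CAGAC match, HGFAC 1 ACGTG match, and 1 of 2 SPINT1 windows held 2 CAGAC matches that share a base.

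HGF was higher with BMP9 in 3 of its 4 probe sets, by 1.42-fold to 1.54-fold. The probe set with the highest mean, 11732746_a_at, read 4.99, 5.25 and 5.03 on the control arrays and 5.98, 5.69 and 5.47 on the BMP9 arrays. All 3 BMP9 arrays lay above all 3 control arrays. The log2 means were 5.09 ± 0.14 and 5.72 ± 0.25 (SD, n = 3), a difference of 0.62 (SE 0.125, 95% interval 0.34 to 0.90). Represented by this probe set, HGF missed the threshold of 0.05 over 18132 genes (limma adjusted p = 0.0615) and was 157th by p. At that threshold 0 of the 8 genes passed, against 0.684% of all genes (0.232% higher). An unadjusted limma p under 0.05 was found for 2 of the 8, HGF and MST1, against 12.9% of all genes. For MST1 it came from a probe set that was the brighter of 2 only through its BMP9 arrays. In cultures of 1 cell type, more HGF RNA per cell and more cells that make it cannot be told apart here.

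The HGF probe sets next in brightness gave differences of like size with smaller standard errors. Probe set 11730068_a_at, annotated to transcript NM_001010931.1, read 3.60, 3.95 and 3.82 in control and 4.50, 4.38 and 4.31 with BMP9. It rose by 0.61 (SE 0.101) and passed over the 44988 probe sets (limma adjusted p = 0.0297). Probe set 11732351_at, annotated to NM_000601.4, read 3.04, 2.93 and 3.10 in control and 3.40, 3.59 and 3.58 with BMP9, and it rose by 0.50 (SE 0.0870, limma adjusted p = 0.0370). Neither had any overlap between the groups. In the same fit 11732746_a_at had an adjusted p of 0.0785.

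The remaining HGF probe set, 11732747_at, annotated to NM_001010934.1, read 2.34, 2.31 and 2.50 in control and 2.47, 2.31 and 2.43 with BMP9. The groups overlapped and the difference was 0.02 (95% interval -0.17 to 0.21), an interval that lies below the differences of the other 3. It was the dimmest of the 4. The brightest HGF probe set minus the mean of the other 3 went from 2.03 ± 0.15 to 2.27 ± 0.25 (SD, n = 3), a shift of 0.24 (exact two-sided permutation test, p = 0.2). With 3 arrays a group 0.1 is the smallest p possible, so the test could not pass, and against the second brightest probe set alone the shift was 0.01.

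The 2 rises in HGF were the only calls among the 26 member probe sets. Over all single-gene probe sets 0.436% were called, with 0.133% higher and 0.302% lower. The calls rested on all arrays being present: 11732351_at lost its call whichever array was left out (adjusted p 0.0510 to 0.187), and 11730068_a_at kept it only without control replicate 2 (0.0353, otherwise 0.0837 to 0.121). The call for the gene, made on the brightest probe set, was gained without BMP9 replicate 3 (0.0427), with an intensity trend and robust prior (0.0199), with all 4 probe sets averaged (0.0238) and among genes with a mean log2 value of at least 5 (0.0147).

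**Figure D1:**
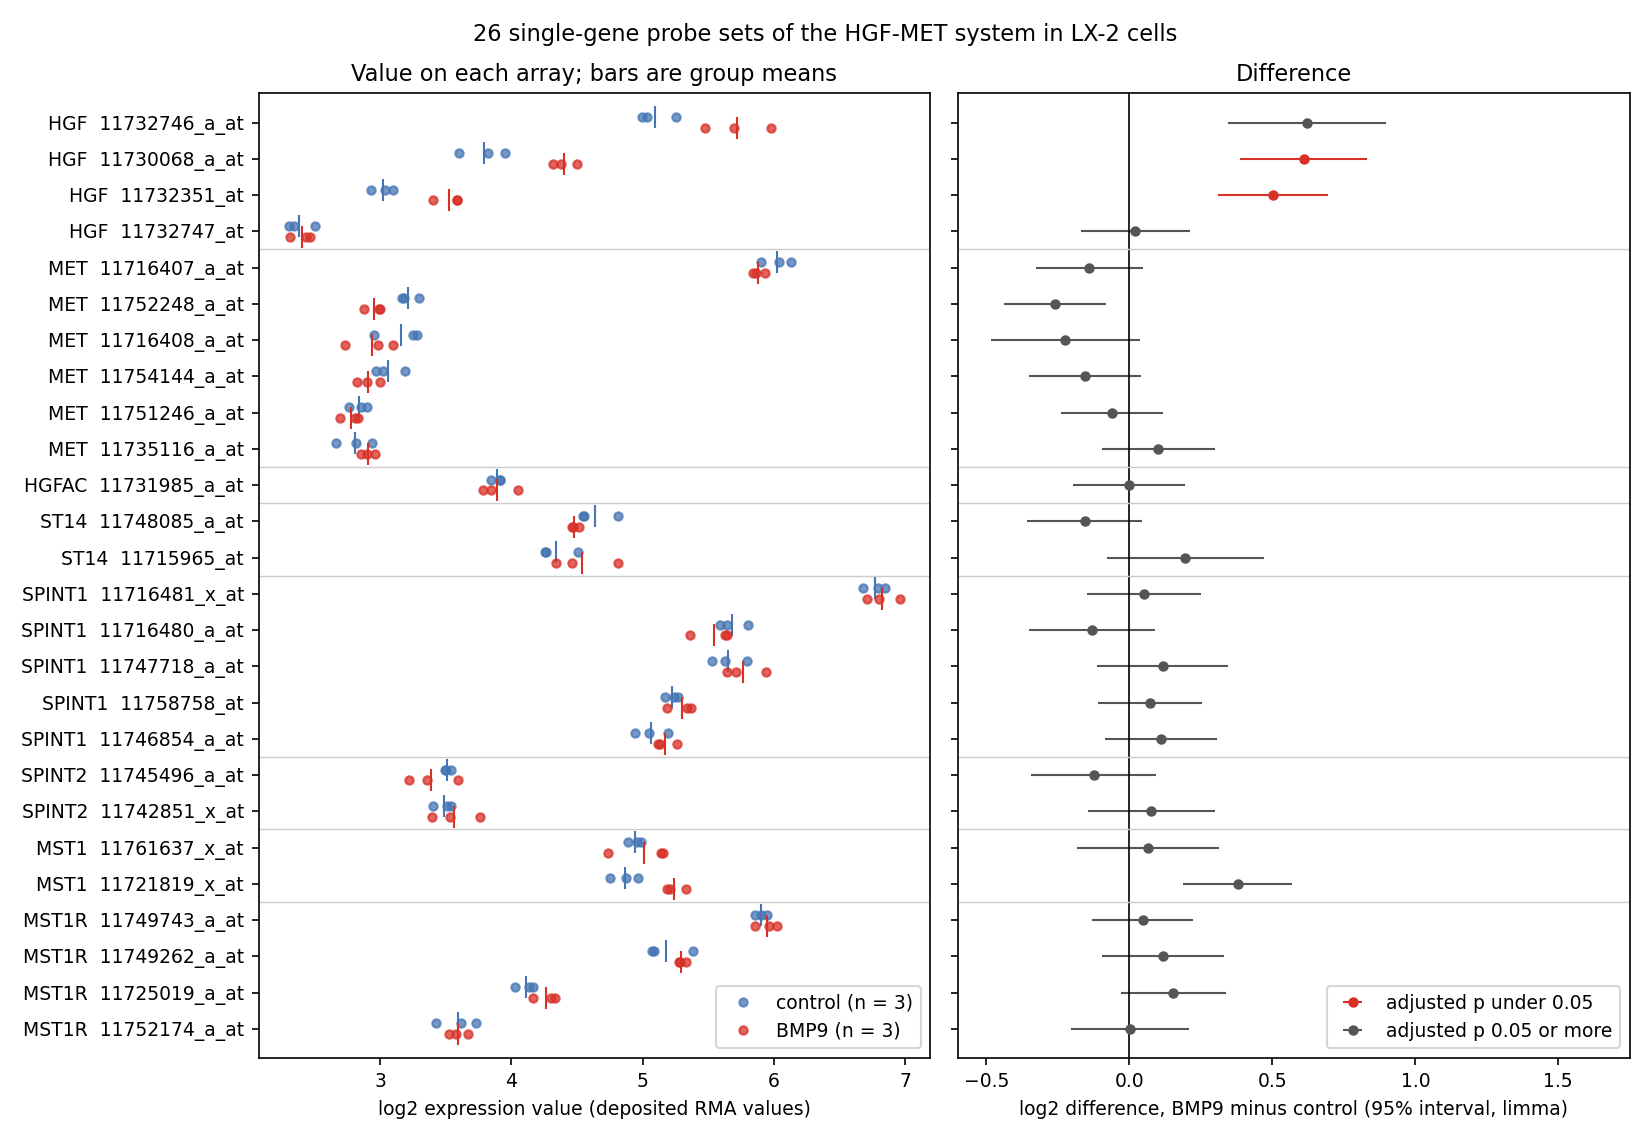
Left, the log2 value of each member probe set on each array, control in blue and BMP9 in red, with short bars for the means of 3 arrays. Right, the log2 difference, BMP9 minus control, with limma's 95% interval; the 2 probe sets in red, both of HGF, passed over all 44988 probe sets, and 3 of the 4 HGF probe sets lie between 0.50 and 0.62.

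MET, the receptor tyrosine kinase for HGF, had a negative difference in 5 of its 6 probe sets, and 0 passed. Its brightest probe set, 11716407_a_at, read 6.13, 6.04 and 5.90 in control and 5.93, 5.84 and 5.87 with BMP9. The lowest control array lay within the BMP9 range. The difference was -0.14 (SE 0.0817, 95% interval -0.32 to 0.04, limma adjusted p = 0.505 over genes) and the interval holds no rise as large as that of HGF. Probe set 11752248_a_at was the MET probe set whose groups did not overlap. It read 3.17, 3.18 and 3.30 in control and 2.87, 2.993 and 2.998 with BMP9, a difference of -0.26 (SE 0.0809, limma adjusted p = 0.260 over probe sets). The other 4 probe sets overlapped, with differences from -0.22 to 0.10. Of all single-gene probe sets, 17.3% had groups that did not overlap. Scaling the arrays to their own spiked controls, described at the end, shifted all genes upward and with them MET, to 0.06 with hybridisation controls and 0.46 with poly-A controls.

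HGFAC, a serine protease of plasma made mainly by hepatocytes, has 1 probe set. It read 3.91, 3.92 and 3.85 in control and 3.78, 3.85 and 4.05 with BMP9. The control arrays lay inside the BMP9 range, and the difference was -0.001 (95% interval -0.19 to 0.19, limma adjusted p = 0.997).

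ST14 encodes matriptase, a membrane serine protease that cleaves pro-HGF at the cell surface, and its 2 probe sets differed in opposite directions. Probe set 11748085_a_at read 4.81, 4.55 and 4.54 in control and 4.46, 4.46 and 4.52 with BMP9. The BMP9 arrays lay below all control arrays, by a narrow margin, and the difference of -0.16 (SE 0.0888) did not pass (limma adjusted p = 0.493 over genes). Probe set 11715965_at read 4.26, 4.51 and 4.26 in control and 4.34, 4.46 and 4.81 with BMP9, with overlap and a difference of 0.20 (SE 0.124). The sign for ST14 therefore depends on the probe set. Under the scalings to spiked controls, which shift all genes alike, the first one read 0.04 (hybridisation) and 0.44 (poly-A).

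SPINT1, also called HAI-1, is the membrane-bound inhibitor of HGFAC and matriptase. Its probe set with the highest mean, 11716481_x_at, read 6.68, 6.79 and 6.84 in control and 6.96, 6.80 and 6.71 with BMP9. The groups overlapped in all 5 SPINT1 probe sets, and the differences ran from -0.13 to 0.12. For the brightest one it was 0.05 (95% interval -0.15 to 0.25, limma adjusted p = 0.857 over genes).

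SPINT2, or HAI-2, is a second membrane inhibitor of these proteases. Probe set 11742851_x_at read 3.40, 3.54 and 3.51 in control and 3.53, 3.40 and 3.76 with BMP9. The other, 11745496_a_at, read 3.50, 3.49 and 3.54 in control and 3.59, 3.22 and 3.35 with BMP9. Both overlapped, and their differences were 0.08 and -0.12 (SE 0.101 and 0.0989), neither of which passed.

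MST1, which encodes the HGF-like ligand MSP, had the second largest positive difference of the 8 genes when represented by its brightest probe set over all arrays. That choice rested on the BMP9 arrays. In control the other MST1 probe set, described next, was the brighter (4.94 against 4.86). Probe set 11721819_x_at read 4.75, 4.87 and 4.96 in control and 5.33, 5.18 and 5.21 with BMP9. All BMP9 arrays lay above all control arrays, and the means were 4.86 ± 0.11 and 5.24 ± 0.080 (SD, n = 3), 1.30-fold higher. The difference of 0.38 (SE 0.0834, 95% interval 0.19 to 0.56) did not pass over genes (limma adjusted p = 0.0867).

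The other MST1 probe set, 11761637_x_at, read 4.89, 4.95 and 4.98 in control and 4.73, 5.14 and 5.15 with BMP9. Those groups overlapped and the difference was 0.06 (SE 0.112). A further 2 probe sets list MST1 together with copies of it, MST1L and MST1P2 among them, and are no members. They differed by -0.10 (3.64 ± 0.092 to 3.54 ± 0.16) and 0.05 (5.42 ± 0.088 to 5.48 ± 0.079; SD, n = 3). The suffix of both member probe sets marks probes shared with other sequences, so the MST1 values may hold signal of these copies, and their part in the result was not tested.

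MST1R, the receptor tyrosine kinase for MSP, had positive differences of 0.002 to 0.15 in its 4 probe sets, and 0 passed. The brightest, 11749743_a_at, read 5.90, 5.85 and 5.95 in control and 5.85, 5.96 and 6.02 with BMP9. All 4 overlapped between the groups, and the interval of the brightest ran from -0.12 to 0.22 (difference 0.05).

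By the probe sets that represent them, both ligands were at the top of the 8 genes by difference. Their receptors MET and MST1R differed by -0.14 and 0.05. For MST1 this rested on a probe set that was the brighter of 2 only through its BMP9 arrays (4.86 against 4.94 in control). The other MST1 probe set differed by 0.065, and those that also list copies of MST1 by -0.10 and 0.05. Among the 26 probe sets 17 had a positive and 9 a negative difference, against 23515 and 21341 of all 44988. The median was 0.06, against 0.007 over all probe sets. Several probe sets read the same gene, and HGF and MST1R gave 4 positive ones each. Groups did not overlap in 6 of the 26 (23.1%), against the 17.3% of all single-gene probe sets. They were higher in 4 of these and lower in 2, where all probe sets gave 9.07% higher and 8.22% lower. Of those 6, HGF gave 3 and MET, ST14 and MST1 1 each. By gene, HGF and MST1 lay higher without overlap and ST14 lower (37.5% of 8, against 18.8% of all genes, 10.3% higher and 8.49% lower).

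Many of these probe sets were dim. The table has no detection calls, but it holds background control probe sets, named by the number of G or C bases in each probe, whose mean rose from 1.67 at 3 such bases to 3.48 at 16, 4.67 at 18 and 5.23 at 20. The base content of the member probes is not in the sources used here, so no member can be called detected or undetected from this. Over both groups, 8 of the 26 member probe sets had a mean above that of the background set with 20 G or C bases: 4 of SPINT1, 2 of MST1R, 1 of MET and 1 of HGF. In control alone the count was 5, since the HGF probe set (5.09), 1 of SPINT1 (5.23) and 1 of MST1R (5.18) lay below that set's control mean of 5.24. The remaining 3 HGF probe sets had means above the background sets with up to 17, 15 and 13 such bases. Background sets with 3 to 24 such bases differed between the groups by -0.03 to 0.06, and the brightest, with 25, by 0.21.

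**Figure D2:**
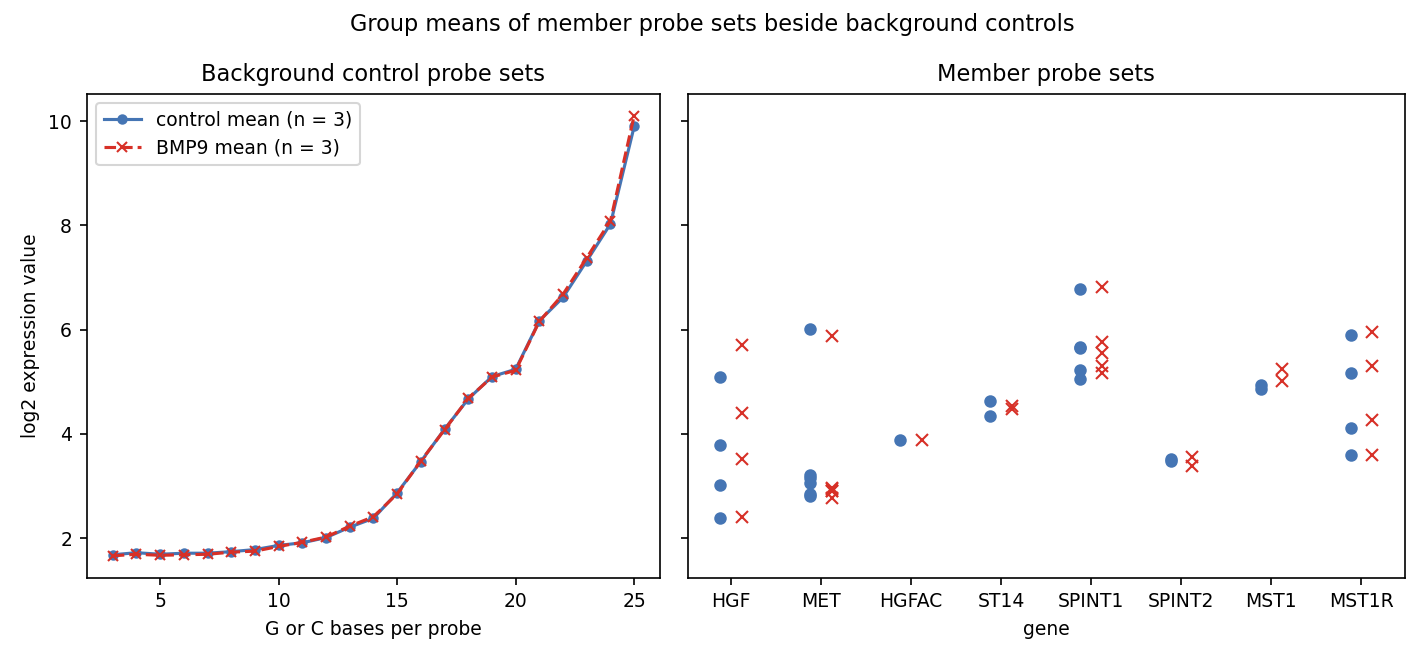
Left, the mean log2 value of each background control probe set against the number of G or C bases per probe, control circles and BMP9 crosses (n = 3 arrays each). Right, the same means for each member probe set; 5 of the 26 control means lie above the control background of 5.24 at 20 bases, and the 3 HGF probe sets that differ stand at 5.09, 3.79 and 3.02 in control.

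Around these 8 genes, 5 lists of the wider pathway held 74 measured genes, of which 2 rose and 3 fell, where 0.232% of all genes were called higher and 0.452% lower. Groups that did not overlap, counted per list, are read against the 18.8% of all genes. They were 2 of 14 genes in the protease list, 3 of 18 among adaptors and 3 of 14 among negative regulators. The counts of the other lists follow. Proteases that can cut pro-HGF or pro-MSP, with their inhibitors, had 14 measured genes, 0 higher and 1 lower, and a median difference of 0.05 against 0.014 over all genes. The member that fell was PLAU, the urokinase gene, from 4.85 ± 0.071 to 4.42 ± 0.032 (SD, n = 3), by 0.42 (SE 0.0738, limma adjusted p = 0.0332), in 1 of 3 probe sets. The tissue plasminogen activator gene PLAT (0.13), the membrane protease gene TMPRSS2 (0.15) and the prostasin gene PRSS8 (0.10) had the next smallest p and did not pass. A dimmer PLAT probe set, 11749809_a_at, named after its values were seen, went from 3.76 ± 0.18 to 3.02 ± 0.083 (SD, n = 3) and fell by 0.74 over probe sets (limma adjusted p = 0.00945), against the direction of the brightest.

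Co-receptors, partner receptors and sheddases of MET had 15 measured genes, of which 0 passed, with a median of 0.07. The members with the smallest p were the tetraspanin gene CD151 (0.12), the integrin gene ITGA6 (0.11), the metalloprotease gene ADAM10 (0.14) and the neuropilin gene NRP1 (0.17), with limma adjusted p from 0.544 to 0.569. Groups did not overlap in 3 of the 15 genes, a share near that of all genes.

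Adaptors and signal transducers of MET had 18 measured genes, 0 higher and 1 lower, and a median of -0.02. RANBP9, a scaffold protein that binds MET, fell from 9.39 ± 0.095 to 8.94 ± 0.062 (SD, n = 3), by 0.45 (SE 0.0796, limma adjusted p = 0.0365 over genes). Its only probe set had an adjusted p of 0.0513 over probe sets. The phospholipase gene PLCG1 (-0.26), the adaptor gene CRKL (-0.19) and the exchange factor gene SOS1 (-0.13) did not pass.

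Negative regulators of MET and its endocytosis had 14 measured genes, 1 higher and 0 lower, and a median of 0.02. SH3KBP1, also called CIN85, links the ubiquitin ligase CBL to endophilins in the uptake of MET. It rose from 5.59 ± 0.15 to 6.11 ± 0.099 (SD, n = 3), by 0.52 (SE 0.0949, limma adjusted p = 0.0411), and of its 4 probe sets another one passed over probe sets. The feedback inhibitor gene SPRY2 (-0.31), the endophilin gene SH3GL2 (0.25) and LRIG1 (-0.18) did not pass.

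Transcription factors known at the HGF or MET promoter had 13 measured genes, 1 higher and 1 lower, with a median of -0.05. Groups did not overlap in 8 of the 13, against 18.8% of all genes. Those 8 include differences as small as -0.05 in FOS and YBX1, and the list was chosen with earlier results of these data known. HIF1A, the oxygen-regulated factor that can activate MET, fell from 8.48 ± 0.033 to 7.87 ± 0.030 (SD, n = 3), by 0.61 (SE 0.0700, limma adjusted p = 0.00327), and 4 of its 8 probe sets passed on their own. ESR1, the estrogen receptor gene, rose from 6.41 ± 0.11 to 6.90 ± 0.023 (SD, n = 3), by 0.49 (SE 0.0801, limma adjusted p = 0.0229), in 1 of 5 probe sets. The AP-1 gene JUN (-0.36) and ETS1 (-0.36) had adjusted p of 0.0697 and 0.0717, and were called with an intensity trend and robust prior (0.00419 and 0.0278) and among genes with a mean log2 value of at least 5 (0.0111 and 0.0114).

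HIF1A kept its call without any single array (limma adjusted p 0.0150 to 0.0237). PLAU and RANBP9 lost theirs whichever array was left out, SH3KBP1 except without control replicate 3 and ESR1 except without control replicate 1. Averaging probe sets ended the calls of PLAU (limma adjusted p = 0.558) and ESR1 (0.261), and scaling to hybridisation controls ended those of PLAU (0.0772) and RANBP9 (0.0672). Scaling to poly-A controls, which shifts all genes upward alike, left HIF1A at -0.005, PLAU at 0.18 and RANBP9 at 0.15.

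**Figure D3:**
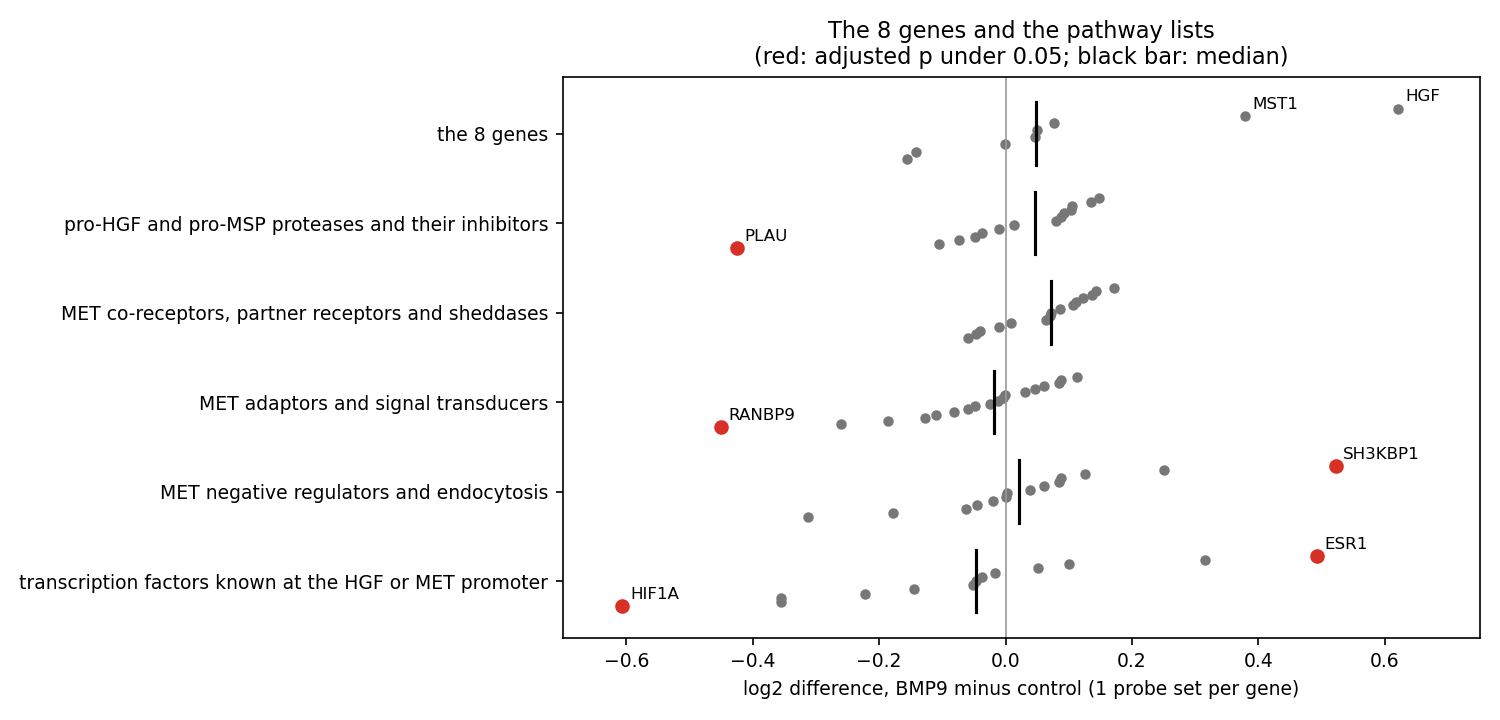
Log2 difference, BMP9 minus control, of each measured gene in the 8-gene set and in 5 pathway lists, 1 probe set per gene. Red points passed at a limma adjusted p under 0.05 over 18132 genes, and black bars are medians; PLAU, RANBP9 and HIF1A fell, SH3KBP1 and ESR1 rose, and HGF at 0.62 did not pass.

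The genes whose values over the 6 arrays were most like those of HGF were found by the Euclidean distance between mean-centred log2 values, among 6743 other genes with a mean log2 value of at least 5. They were FOXP1, which encodes a forkhead transcription factor (distance 0.260), the creatine transporter gene SLC6A8 (0.362) and the circadian clock gene BMAL1 (0.377), against a median distance of 0.874. FOXP1 read 6.93, 7.03 and 6.99 in control and 7.64, 7.62 and 7.35 with BMP9. As in 11732746_a_at, the HGF probe set used here, the FOXP1 value on BMP9 replicate 3 was the lowest of the BMP9 arrays. The HGF probe set 11730068_a_at was also lowest there. With BMP9, 11732351_at (3.40, 3.59 and 3.58) and 11732747_at (2.47, 2.31 and 2.43) were lowest on other arrays. FOXP1, SLC6A8 and BMAL1 were chosen for their likeness, so neither that order nor their differences were tested.

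**Figure D4:**
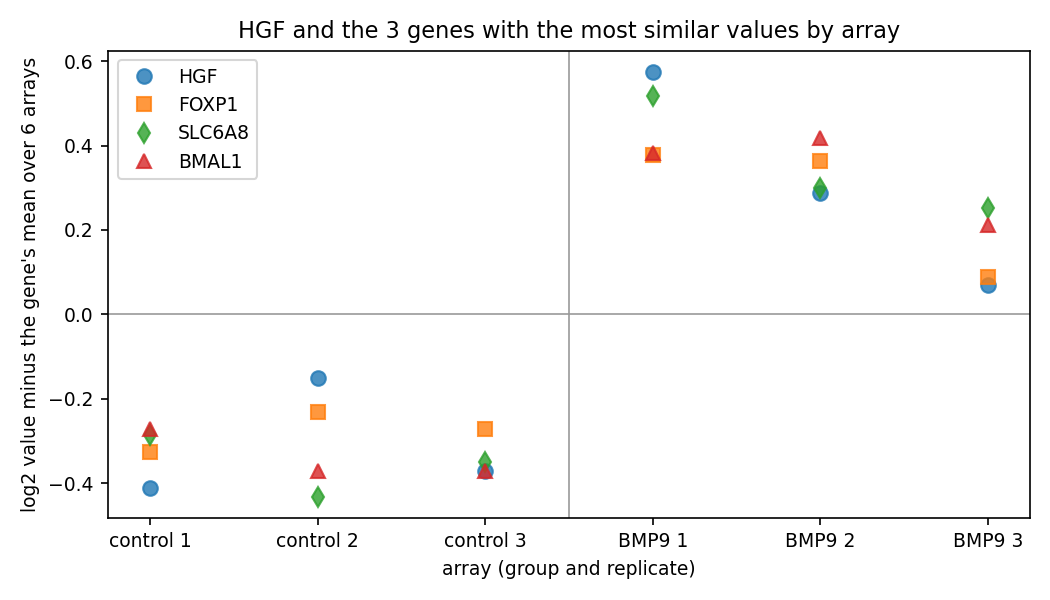
Log2 value minus the gene's own mean over 6 arrays, for HGF and the 3 genes nearest to it, by array. All 4 genes lie below 0 on the 3 control arrays and above 0 on the 3 BMP9 arrays.

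The array's spiked controls were lower on the BMP9 arrays, so all differences depend on the deposited normalisation. Scaling to hybridisation controls moved the median of all genes to 0.22 and called 4502 genes higher and 75 lower, against 42 and 82 on the deposited scale. Scaling to poly-A controls moved the median to 0.61 and called 17425 higher and 15 lower. HGF then differed by 0.82 and 1.22 and MST1 by 0.58 and 0.98, and all 8 genes were called higher under the poly-A scaling.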

How the data were processed

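Gene expression was measured on 6 arrays, 3 control and 3 BMP9. The authors deposited log2 values per probe set made with RMA, per the submitters' processing notes. Which software ran it is not named in the sources read here, and the log base was taken from the range of the values. RMA corrects background, equalises the arrays by quantiles and summarises probes, so a shift common to nearly all transcripts would mostly vanish. The labels call the samples biological replicates and say no more, so each p-value reflects only how far these samples spread, which may be technical. Precision is limited by having 6 arrays. Of 49395 probe sets, 44988 carried 1 gene symbol.

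In the gene fit each gene was represented by its probe set with the highest mean over the arrays; in the probe set fit each probe set was tested. Both used limma 3.58.1 (lmFit, eBayes) in R 4.3.3 with Benjamini-Hochberg adjustment and a threshold of 0.05. The fit was tested on simulated data. Named genes were the 8 members, called genes and up to 4 genes by smallest p of each list, 3 genes most like HGF, SMAD6 and ID3. Some listed genes are not reported here. Members and lists were chosen with earlier results of these data known. Alternatives were the replicate block, normalisation, scaling, dim-probe filters, prior, choice of probe set and leaving out each array. Figures were drawn with matplotlib 3.10.9.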

Additional observations from a re-analysis of the deposited data

How the results depend on the processing

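Counts of called genes and probe sets moved with several settings, while the direction of HGF and MST1 (by gene) did not where each was measured. Without probe sets named _x_at, _s_at or _a_at MST1 was not measured, since both of its probe sets are named _x_at. Of the 8 genes, 0 passed in the gene fit, against 2 (HGF and MST1) with hybridisation scaling or a minimum mean log2 value of 5, which MST1 reached only through its BMP9 arrays (4.86 in control and 5.24 with BMP9), 8 with poly-A scaling, and 1 (HGF) with an intensity trend or averaged probe sets; with any array left out the count was 0 to 1. Of the 26 probe sets, 2 passed, against 6 with hybridisation scaling and 25 with poly-A scaling, and 0 to 1 with any array left out. With a minimum of 5 the 2 called were others, 11732746_a_at of HGF and that same MST1 probe set. No member reached a mean log2 value of 7. The difference between HGF probe sets ranged from 0.12 to 0.36 with any array left out and was 0.01 against the second brightest alone.

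Replicate numbers showed no pairing in the values: deviations of same-numbered arrays correlated at 0.004, 0.046 and -0.021. The labels do not say whether same-numbered samples were prepared together. With the number as a replicate block, 0 of the 8 genes and 0 of the 26 probe sets passed. Of the list genes called, HIF1A kept its call under the block (limma adjusted p = 0.0126), and PLAU (0.0767), RANBP9 (0.0570), SH3KBP1 (0.0827) and ESR1 (0.0524) did not.

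Small differences changed sign. With hybridisation scaling MET became 0.061, HGFAC 0.201, ST14 0.045, MET probe sets 11754144_a_at 0.048 and 11751246_a_at 0.139, SPINT1 11716480_a_at 0.069 and SPINT2 11745496_a_at 0.078. With poly-A scaling MET became 0.46, HGFAC 0.60, ST14 0.44, MET 11752248_a_at 0.34, 11716408_a_at 0.38, 11754144_a_at 0.45 and 11751246_a_at 0.54, SPINT1 11716480_a_at 0.47 and SPINT2 11745496_a_at 0.48. Both scalings add a shift to every gene. MST1R 11752174_a_at became -0.006 with quantile normalisation and -0.009 with median centring. With averaged probe sets ST14 became 0.02 and SPINT2 -0.023, and without probe sets named _x_at, _s_at or _a_at ST14 became 0.20, since another probe set was used. Leaving out 1 array in turn gave -0.079 to 0.055 for HGFAC 11731985_a_at, -0.018 to 0.079 for HGF 11732747_at, -0.079 to 0.072 for MST1R 11752174_a_at, -0.018 to 0.108 for SPINT1 11716481_x_at, -0.007 to 0.203 for MST1 11761637_x_at, -0.021 to 0.160 for SPINT2 11742851_x_at, with a change of sign in each.

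Over all genes 124 passed, against 267 and 247 with a minimum of 5 and 7, 285 with an intensity trend, 17 without shared-probe names and 54 to 78 with any array left out; over all probe sets 196 passed, against 426, 354, 405 and 81 to 129.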
